A study of Mus musculus with 35 samples.

Results

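The transcripts described here encode the chromosomal passenger complex and the spindle checkpoint of the mouse zygote and early 2-cell (2C) embryo. They are 10 of the 24480 genes in the count table, chosen by name: Incenp, Aurka, Aurkb, Aurkc, Birc5, Cdca8, Ttk, Bub1, Bub1b and Mad2l1. The choice was made with earlier results of these data known, and the record of it does not say which comparison was in view. Every value given for these genes is therefore a description, and the adjusted p-values printed beside them, which come from fits over the whole table, are not independent evidence.

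At each division, chromosomes must be attached to microtubules from both spindle poles before the sister chromatids part. The chromosomal passenger complex sits at the inner centromere and releases faulty attachments. INCENP is its scaffold, Survivin (Birc5) and Borealin (Cdca8) hold it on centromeric chromatin, and Aurora B or, in germ cells and early embryos, Aurora C (Aurkc) is its kinase. Aurora A (Aurka) acts mainly at the spindle poles. The spindle checkpoint delays anaphase while any kinetochore is unattached: the kinase TTK (also called MPS1) starts the signal, BUB1 carries it at the kinetochore, and MAD2 (Mad2l1) and BUBR1 (Bub1b) join the inhibitor of the anaphase-promoting complex. In the mouse, the oocyte stores these messengers for meiosis and for the first cleavages, because the embryo transcribes little until the late 2C stage.

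The embryos were wild type C57BL/6NRj, from superovulated females 3 to 4 weeks old mated with males of the same strain, and no group carried a transgene or deletion. Kdm5b groups received in vitro transcribed Kdm5b-yfp mRNA at about 1150 ng/µl, the messenger of KDM5B, an enzyme that demethylates H3K4, joined to a yellow fluorescent protein. Water groups received nuclease-free water, so an effect of injecting mRNA as such cannot be told apart from one of KDM5B. Zygotes (10 water, 10 Kdm5b) were injected in S phase and collected 17 h after ovulation, in late S or G2 phase. Both cells of 2C embryos were injected 1 to 2 h after division, and the embryos were collected 5.5 to 8 h after division, in late S phase. The 9 water 2C samples were 6 single embryos, 1 pool of 2 blastomeres and 2 pools of 3 blastomeres, and the 6 Kdm5b 2C samples were 5 single embryos and 1 pool of 3 blastomeres. The 2C embryos developed from zygotes that had been frozen and thawed, and libraries of both stages were made on different days, so stage cannot be told apart from freezing or library day.

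Between 8705584 and 17797581 fragments per sample fell on genes. The Kdm5b row held 2.30% to 10.4% of these in Kdm5b zygotes and 8.27% to 15.8% in Kdm5b 2C samples, against at most 0.00137% and 0.0189% in the water groups, and was removed before normalization. A pair of water 2C libraries stood apart: U86 and U87, named here by the library index number in their labels, had counts on 11841 and 12155 genes, whereas the other 7 had counts on 13855 to 15301. The 2C libraries were also uneven over the index numbers, with 3 water (U85 to U87) and 5 Kdm5b samples (U81 to U84 and U88) at U81-U88, and 6 water and 1 Kdm5b sample (U92) at U89-U95. The sources do not call these index ranges batches. All 10 oocyte and zygote markers were present in every group, and their summed level was 4544 to 5708 CPM (counts scaled to one library size after TMM normalization) in water zygotes and 2652 to 4458 in water 2C samples. The summed level of 10 2-cell markers was 9.77 to 51.7 CPM and 163 to 782 CPM in the same groups. At the 2C stage its median was 301 CPM in Kdm5b and 400.4 CPM in water samples, and within U81-U88 the range was 196 to 479 CPM in Kdm5b and 380.03 to 509.9 CPM in water samples. The part of this difference in the lower Incenp, Cdca8 and Ttk of Kdm5b 2C samples was not tested. Summed cumulus cell markers (12 genes) lay between 4.34 and 20.9 CPM over all groups, with Amh and Inha at 0 in every 2C library. Without a spike-in, a lower CPM cannot be told apart as fewer transcripts of a gene or more of the others.

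Each of the 10 genes passed the filter on low counts in every comparison. The least abundant, Aurkb, had between 38 and 316 fragments per library, and the next lowest, Aurkc, at least 168. Aurkc is a special case: 74.2% of the 50-base stretches of its transcript also occur in 10 other annotated genes, led by Gm12463, Gm6909 and Gm7210. Fragments that map to several places were not counted, so the Aurkc value rests on the remaining part of the transcript and is uncertain. The search used 1 coding transcript a gene from GENCODE M21, and for Mad2l1 that transcript (7557 bases) is far longer than the counted exons (1725 bases), so no share is given for it. Shared stretches made up 2.34% of the Birc5 transcript searched, which at 947 bases is shorter than its counted exons (3416 bases). None was found for the other 7 genes.

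**Figure D1:**
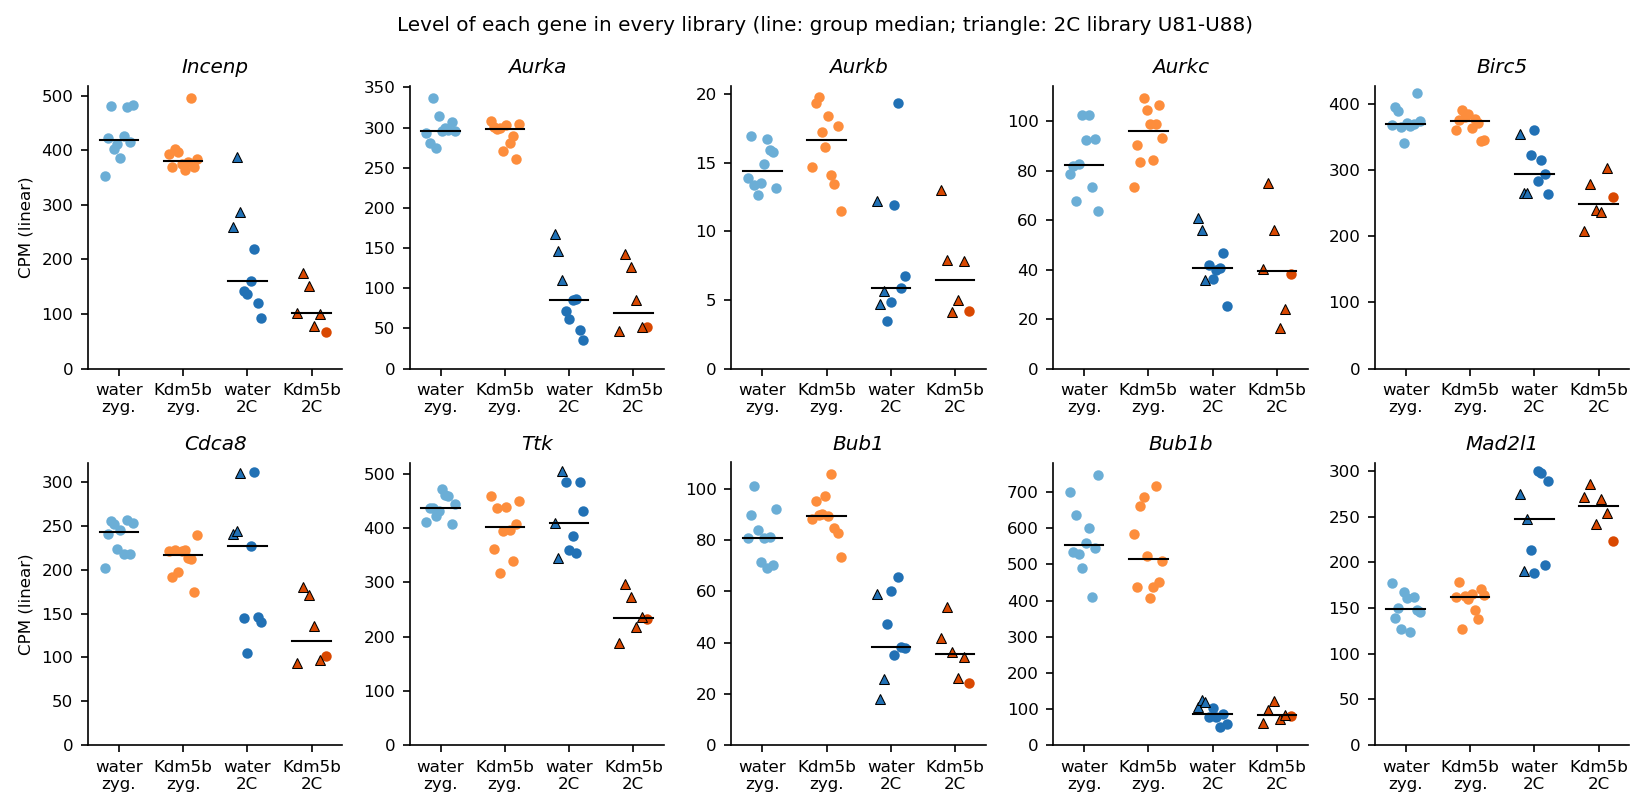
Level of each of the 10 genes in every library, in CPM on a linear axis that starts at 0, by group (zyg., zygote). Each point is 1 library, triangles are 2C libraries U81-U88, and the line is the group median; Bub1b lies at 410 to 747 CPM in water zygotes and at 50.7 to 125 CPM in water 2C samples, and all 6 Kdm5b 2C points of Ttk lie below the 9 water 2C points.

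Compared per length of transcript, in TPM (counts divided by exon length and scaled to one total per library), 6 of the genes were at similar levels in water zygotes. The median was 464 TPM for Bub1b, 463 for Cdca8, 457 for Aurka, 433 for Ttk, 406 for Incenp and 332 for Birc5, and the ranges of neighbours in this order overlapped, as did those of Birc5 and Mad2l1 (263 TPM). Within the same library, Bub1b was above Cdca8 in 6 of 10 water zygotes and Cdca8 above Aurka in 5. Aurka was above Ttk in 9 and Ttk above Incenp in 7. Incenp was above Birc5, and Birc5 above Mad2l1, in all 10. Below Mad2l1, Aurkc (178 TPM), Bub1 (57.05 TPM) and Aurkb (22.5 TPM) were each separated from the gene above by ranges that did not overlap. In water zygotes the Aurkc transcript was thus more abundant than that of its paralogue Aurkb, by a median of 7.87 times within the same library, and in water 2C samples by a median of 8.65 times. Aurkc stayed above Aurkb in the lowest water 2C library too, with a ratio of 2.88. The place of Aurkc in the order of any group and the size of these ratios are uncertain. Its fragments that map to several places were not counted, but its whole exon length was used, so its TPM may be too low. Its gap below Mad2l1 in water zygotes was narrow, from at most 223.8 TPM for Aurkc to at least 224.0 TPM for Mad2l1. The place of Birc5 in the order of any group depends on the length used. Its counted exons cover 3416 bases, but its GENCODE coding transcript has 947 bases, and with that length its TPM would be higher.

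The order was different at the 2C stage. Mad2l1 had the highest median in water 2C samples (421 TPM), followed by Ttk (399), Cdca8 (387), Birc5 (263), Incenp (139), Aurka (121), Aurkc (82.8), Bub1b (71.1), Bub1 (26.98) and Aurkb (9.16), and here the ranges of all neighbours overlapped. Within the same water 2C library, Bub1 was above Aurkb in 9 of 9, and the other neighbours kept this order in 4 to 8 of 9. In Kdm5b 2C samples Mad2l1 (427 TPM) was separated from the next gene, Birc5 (216 TPM), and Cdca8 and Ttk both stood at 211 TPM. In Kdm5b zygotes the same 7 genes as in water zygotes led the order, from 459.6 TPM for Aurka to 289 TPM for Mad2l1. For 9 of the 10 genes the highest of the 4 group medians was in zygotes, in TPM and in CPM alike. Mad2l1 was the exception.

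**Figure D2:**
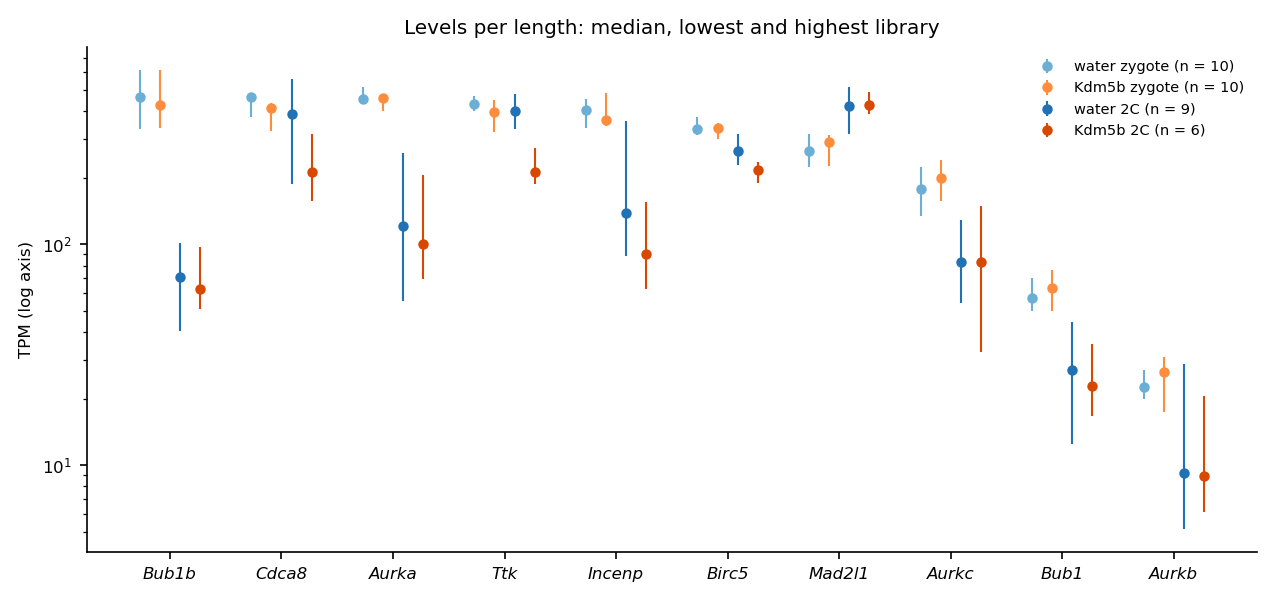
Levels per length (TPM, log axis) of the 10 genes, ordered by their median in water zygotes, with the median (point) and the lowest and highest library (bar) of each group. Bub1b falls from the first place in water zygotes (464 TPM) to the eighth in water 2C samples (71.1 TPM), and Mad2l1 moves from 263 to 421 TPM.

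The comparison of 2C samples with zygotes asks which of these stored transcripts were lower after the first division, before the main wave of embryonic transcription. In the water groups, Incenp, Aurka and Bub1b were called lower, at an adjusted p under 0.05 and more than a 2-fold difference in edgeR's quasi-likelihood test. None of the 10 was called higher. Over all 11968 genes tested, 22.2% were called, 13.0% lower and 9.20% higher. The median log2 fold change of the 10 genes was -0.85, beside 0.02 for all genes tested. At the adjusted p alone, 7 of the 10 were lower and Mad2l1 was higher, where 52.2% of all genes passed, 25.4% lower and 26.8% higher. Without water 2C replicate 4 (library U93), 5 of the 10 were called lower, as Aurkb and Bub1 then passed the fold change threshold. Without replicate 5 (U94) 2 were, as Incenp stood at -0.99. The share of all genes called in these fits is not given here.

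The inner centromere scaffold and its partners in the passenger complex did not move alike. Incenp, on the minus strand at chr19:9872297-9899533 of mm10, lay between 353 and 483 CPM in water zygotes (median 419) and between 92.4 and 388 CPM in water 2C samples (median 160.5). All but 1 of the 9 water 2C samples were below the lowest zygote. Its fitted log2 fold change was -1.06 ± 0.19 (SE, adjusted p = 3.86e-05). The value depended on which 2C libraries entered: it was -0.45 with water U85 to U87 alone and -1.56 with water U89 to U95 alone. Birc5 went from a median of 370.0 CPM (341 to 417) to 294 CPM (264 to 360.1), a log2 fold change of -0.28 ± 0.07 (adjusted p = 0.00204). Cdca8, at chr4:124918465-124936917, had medians of 243 CPM in water zygotes and 227 CPM in water 2C samples, but its 2C samples ranged from 105 to 311 CPM, with 4 of 9 below all zygotes and 2 of 9 above them. Its log2 fold change of -0.16 ± 0.16 did not pass the test (adjusted p = 0.419). Within a library, the Birc5 to Incenp ratio (TPM) had a median of 0.832 in water zygotes and 1.66 in water 2C samples. The size of this ratio depends on the length used for Birc5, but its change between the stages does not.

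All 3 Aurora kinases were lower at the 2C stage, Aurka by the most. Aurka, at chr2:172356190-172370570 on the minus strand, lay between 274 and 337 CPM in water zygotes and between 35.6 and 167 CPM in water 2C samples, with no overlap. This was a log2 fold change of -1.70 ± 0.20, or 3.25-fold lower (adjusted p = 8.75e-08). Aurkc, at chr7:6995385-7003091, went from 63.7 to 103 CPM in zygotes to 25.4 to 60.97 CPM, also without overlap, at -0.95 ± 0.14 (adjusted p = 2.00e-06), just short of a 2-fold difference. Aurkb had a median of 14.4 CPM (12.7 to 17.0) in water zygotes and 5.88 CPM in water 2C samples, where 1 library was above every zygote at 19.4 CPM and the other 8 were below, down to 3.50 CPM. The Aurkb fold change was -0.79 ± 0.26 on the log2 scale (adjusted p = 0.0115).

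Of the checkpoint genes, Bub1b differed most between the stages and Ttk hardly at all. Bub1b, at chr2:118598211-118641592 on the plus strand, ranged from 409.9 to 747 CPM in water zygotes (median 553) and from 50.7 to 125 CPM in water 2C samples (median 85.1). The ranges were far apart, and the fitted difference was -2.66 ± 0.15 on the log2 scale, 6.33-fold lower (adjusted p = 1.24e-12). Bub1, its paralogue, had a median of 81.1 CPM (69.2 to 101) in water zygotes and 38.1 CPM (18.0 to 65.8) in water 2C samples, at -0.90 ± 0.18 (adjusted p = 0.000109). The Bub1b to Bub1 ratio in TPM accordingly had a median of 8.13 in water zygotes and 2.14 in water 2C samples. Ttk stayed at medians of 438 CPM (408 to 472) and 409 CPM (345 to 505), and its log2 fold change of -0.04 ± 0.08 had an interval of 2 SE from -0.20 to 0.12 (adjusted p = 0.697).

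Mad2l1, at chr6:66535468-66540991, went the other way. It lay between 124 and 178 CPM in the 10 water zygotes and between 189 and 301 CPM in the 9 water 2C samples, so that every 2C library was above every zygote. The log2 fold change was 0.73 ± 0.10, 1.66-fold higher (adjusted p = 1.64e-06), which is under the 2-fold threshold. Within a library, the TPM ratio of Mad2l1 to Bub1b, whose proteins meet in the checkpoint's inhibitory complex, had a median of 0.546 in water zygotes (0.415 to 0.842) and of 5.51 in water 2C samples (3.26 to 12.5).

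Kdm5b embryos, which share no sample with the water groups, were compared between the stages in the same way. There 6 of the 10 genes were called lower (Incenp, Aurka, Aurkb, Aurkc, Bub1 and Bub1b) and none higher, where 26.5% of 12390 genes were called, made up of 16.0% lower and 10.5% higher. At the adjusted p alone 9 were lower and Mad2l1 was higher, where 58.7% of all genes passed, 29.5% lower and 29.3% higher. The log2 fold changes were close to those of the water groups for Bub1b (-2.64 ± 0.16), Aurka (-1.78 ± 0.19) and Mad2l1 (0.72 ± 0.08). Bub1b went from 406 to 718 CPM in Kdm5b zygotes to 59.996 to 123 CPM in Kdm5b 2C samples, and Mad2l1 from 128 to 178 CPM to 223 to 286 CPM, both without overlap. Incenp (-1.79 ± 0.16), Ttk (-0.72 ± 0.10) and Cdca8 (-0.70 ± 0.13) had estimates further below 0 than in the water groups. So, by less, did Aurkb (-1.19 ± 0.23), Bub1 (-1.30 ± 0.14), Birc5 (-0.53 ± 0.08) and Aurkc (-1.17 ± 0.21). The median of the 10 genes was -1.18, beside -0.85 in the water groups and 0.01 for all genes tested. Among the 10, the difference between the injections passed its test for Ttk only, as described with the 2C values.

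The 3′ ends of the transcripts were searched for letters of the cytoplasmic polyadenylation element, TTTTAT or TTTTAAT, on the transcript strand in the last 100 bases. In oocytes this element is known to be bound by CPEB proteins, which set the tail length and translation of stored messengers. Taken from GENCODE M21, whose transcript ends can differ from those of the counted annotation, as for Mad2l1, 4 of the 10 genes held it (Aurka, Aurkb, Aurkc and Bub1b), against 18.7% of 12805 tested genes with a coding transcript. The sequences are shown for these 4 genes. Capitals mark the element and, where it follows directly, the polyadenylation signal AATAAA, which or ATTAAA was found in 7 of the 10 genes and in 78.1% of all. Neither signal was found for Incenp, Aurka and Mad2l1, so for them it is uncertain whether the end searched is the true one.
Aurka, chr2:172356236-172356265, minus strand: taaaggctattTTTTATgttggagttctgt
Aurkb, chr11:69051617-69051646, plus strand: gaagaacaacaTTTTATAATAAAgtcttaa
Aurkc, chr7:7003037-7003066, plus strand: cttgttttctcTTTTATgaagtgatgttaa
Bub1b, chr2:118641554-118641583, plus strand: ttcactgtgtaTTTTATAATAAAatagttt

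In the water groups these 4 genes had log2 fold changes between -2.66 and -0.79, and the other 6 between -1.06 and 0.73, so the ranges overlapped. The motifs were looked for with these fold changes known, and a match in letters is not a measured site.

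**Figure D3:**
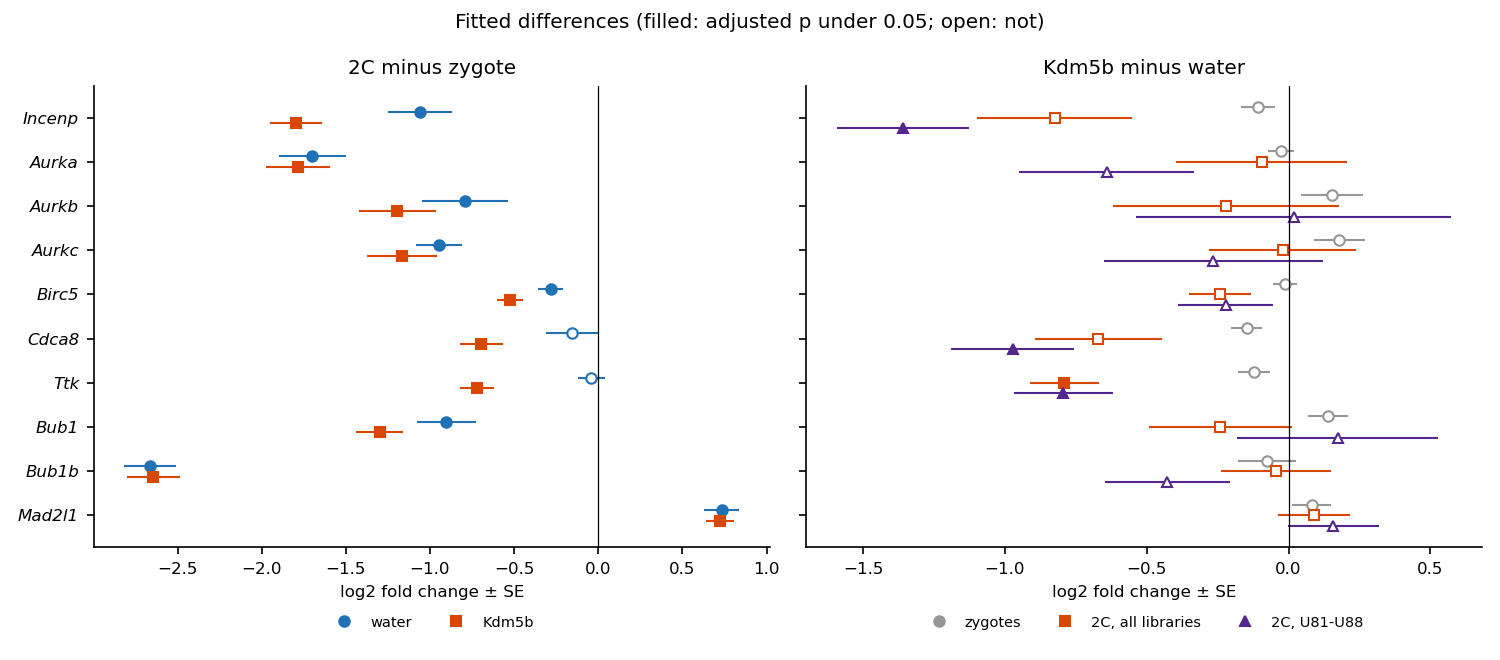
Fitted log2 fold changes with their SE for the 10 genes, as 2C minus zygote in the water and Kdm5b groups (left) and Kdm5b minus water in zygotes, in all 2C libraries and in 2C libraries U81-U88 (right). Filled symbols have an adjusted p under 0.05; on the right, Ttk is filled in all 2C libraries (-0.79) and Incenp, Cdca8 and Ttk in U81-U88 (-1.36, -0.97 and -0.79).

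The comparison of Kdm5b with water embryos asks whether these transcripts differed between the injections within a stage. In zygotes none of the 10 passed the adjusted p, with or without the fold change threshold, and the unadjusted p was under 0.05 for 2 of them and for 1234 of all genes. Of 11933 genes, 0.00838% were called, and 0.134% passed the adjusted p alone, 0.0168% higher and 0.117% lower. The log2 fold changes ran from -0.15 ± 0.06 for Cdca8 to 0.18 ± 0.09 for Aurkc, and the intervals of 2 SE stayed within -0.28 and 0.37 for all 10. Cdca8 had a median of 217 CPM (174 to 239.98) in Kdm5b zygotes beside 243 CPM (202 to 257) in water zygotes, and all 10 Kdm5b zygotes were below the water median. Ttk spread more widely in Kdm5b zygotes (317 to 459 CPM) than in water zygotes, with 6 of 10 below the lowest water zygote, at -0.12 ± 0.06 (adjusted p = 0.451).

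At the 2C stage Ttk was the gene that stood out. It lies on the plus strand at chr9:83834689-83872390. In the 6 Kdm5b 2C libraries Ttk was at 188 CPM (U81), 297 (U82), 273 (U83), 218 (U84), 236 (U88, the pool) and 232 CPM (U92). The 9 water 2C libraries ranged from 345 to 505 CPM with a median of 409, so that every Kdm5b library was below every water library. The same then has to hold against water U85 to U87 and water U89 to U95 taken apart, so it is no separate check on index range. The share of all genes separated in this way is not given here. The log2 fold change was -0.79 ± 0.12, or 1.73-fold lower, with an adjusted p of 0.0175 in edgeR's test. This is under the 2-fold threshold, so that none of the 10 genes was called; at both thresholds 0.00817% of 12244 genes were called, and 0.0245% passed the adjusted p alone. The adjusted p of Ttk rose to between 0.0563 and 0.0847 when any 1 of Kdm5b 2C replicates 1, 4, 5 and 6 was left out, and was 0.199 over single embryos alone, with estimates that stayed between -0.86 and -0.73. Without water U86 and U87 it was 0.0363 at the same estimate of -0.79.

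The Kdm5b difference of Ttk at the 2C stage was larger than that in zygotes by -0.66 ± 0.13 on the log2 scale. This interaction term passed the adjusted p (0.0152) over all 35 samples, in a fit with a common estimate of the spread. The SD of Ttk was 4.83% of its mean in water zygotes and 12.1% in Kdm5b zygotes. It was 14.9% in water 2C and 16.2% in Kdm5b 2C samples, so the p-value may be too small. None of the 10 genes was called by both thresholds in the interaction, where 0.0145% of 13778 genes were called, with 0.00726% in each direction. At the adjusted p alone 0.109% of all genes passed, 0.102% lower and 0.00726% higher. For Incenp the same term was -0.72 ± 0.26 (adjusted p = 0.324) and for Cdca8 -0.52 ± 0.22 (adjusted p = 0.433), so a change in the stage difference was not shown for them over all libraries. In TPM, the Ttk to Mad2l1 ratio within a library had medians of 1.62 in water zygotes, 1.42 in Kdm5b zygotes, 1.00 in water 2C samples (0.658 to 1.36) and 0.543 in Kdm5b 2C samples (0.381 to 0.624). The last range did not overlap that of water 2C samples.

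Incenp and Cdca8 gave different answers by library index. Kdm5b Incenp values were 102 CPM (U81), 174 (U82), 152 (U83), 77.9 (U84), 101 (U88) and 67.3 CPM (U92). Water Incenp values were 259 CPM (U85), 388 (U86) and 287 CPM (U87), but 142.5 CPM (U89), 136 (U90), 160.5 (U91), 218 (U93), 120.3 (U94) and 92.4 CPM (U95). The first 3 water libraries were thus above the other 6, and the Kdm5b libraries overlapped only the latter. Over all 2C libraries the log2 fold change was -0.82 ± 0.27 (adjusted p = 0.332). Within U81-U88, 5 Kdm5b against 3 water libraries, it was -1.36 ± 0.23 (adjusted p = 0.0320), and Incenp was called lower, with 0.563% of 12426 genes called, 0.531% lower and 0.0322% higher. The call was lost without any 1 of water 2C replicates 2 and 3 and Kdm5b 2C replicates 1, 4 and 6, at adjusted p values up to 0.159. With the index range as a term in the fit of all 2C libraries, it was -1.26 (adjusted p = 0.00616). With all 35 samples sharing a common estimate of the spread it was -0.84 (adjusted p = 0.0132). That spread includes the zygotes, where Incenp varied less. Its SD was 10.2% of the mean in water zygotes and 47.8% in water 2C samples, so this p-value may be too small. At both thresholds the fit of 35 samples called 55 of 13778 genes lower and 15 higher in Kdm5b against water 2C. Among the water libraries there were U86 and U87, which had few genes detected. Without them 1 water library was left, and the estimate was -1.13 ± 0.33 with an adjusted p of 0.934. In all 2C libraries but these it was -0.51 (adjusted p = 0.573). The part of these libraries in the result was not tested further.

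Cdca8 was also lower in Kdm5b libraries within U81-U88, but unlike for Incenp, its ranges in water U85 to U87 and water U89 to U95 overlapped. Kdm5b values were 93.5 CPM (U81), 179.8 (U82), 171 (U83), 135 (U84), 97.0 (U88) and 102 CPM (U92). In water 2C libraries Cdca8 was at 241 CPM (U85), 245 (U86) and 311 CPM (U87), and at 145 CPM (U89), 105 (U90), 227 (U91), 311 (U93), 146 (U94) and 141 CPM (U95). The log2 fold change was -0.67 ± 0.22 over all 2C libraries (adjusted p = 0.342) and -0.97 ± 0.22 within U81-U88 (adjusted p = 0.0471), where the groups did not overlap. With the index range as a term it was -0.91 (adjusted p = 0.0391). With all 35 samples in a single fit it was -0.68 (adjusted p = 0.0146), a p-value that may be too small, as for Incenp. The SD of Cdca8 was 8.35% of its mean in water zygotes and 36.7% in water 2C samples. Ttk within U81-U88 was at -0.79 ± 0.18 (adjusted p = 0.0449). At the adjusted p alone, 3 of the 10 genes were thus lower within U81-U88, where 0.893% of all genes passed, 0.813% lower and 0.0805% higher. With 1 library left out these passes were often lost while the estimates stayed between -1.12 and -0.83 for Cdca8 and between -0.94 and -0.63 for Ttk. Cdca8 lost its pass without water 2C replicate 2 or 3 (U86, U87) or Kdm5b 2C replicate 1, 4 or 6, at adjusted p values from 0.0955 to 0.217. Ttk lost it without any water 2C replicate of the range or Kdm5b 2C replicate 1, 3, 4 or 6, at adjusted p values from 0.0502 to 0.218. Like Incenp, Aurka and Bub1b were higher in water U85 to U87 than in each of water U89 to U95 (110.0 to 167 against 35.6 to 87.1 CPM, and 106 to 125 against 50.7 to 104 CPM). Their Kdm5b differences within U81-U88 were -0.64 ± 0.31 (adjusted p = 0.392) and -0.43 ± 0.22 (adjusted p = 0.428).

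**Figure D4:**
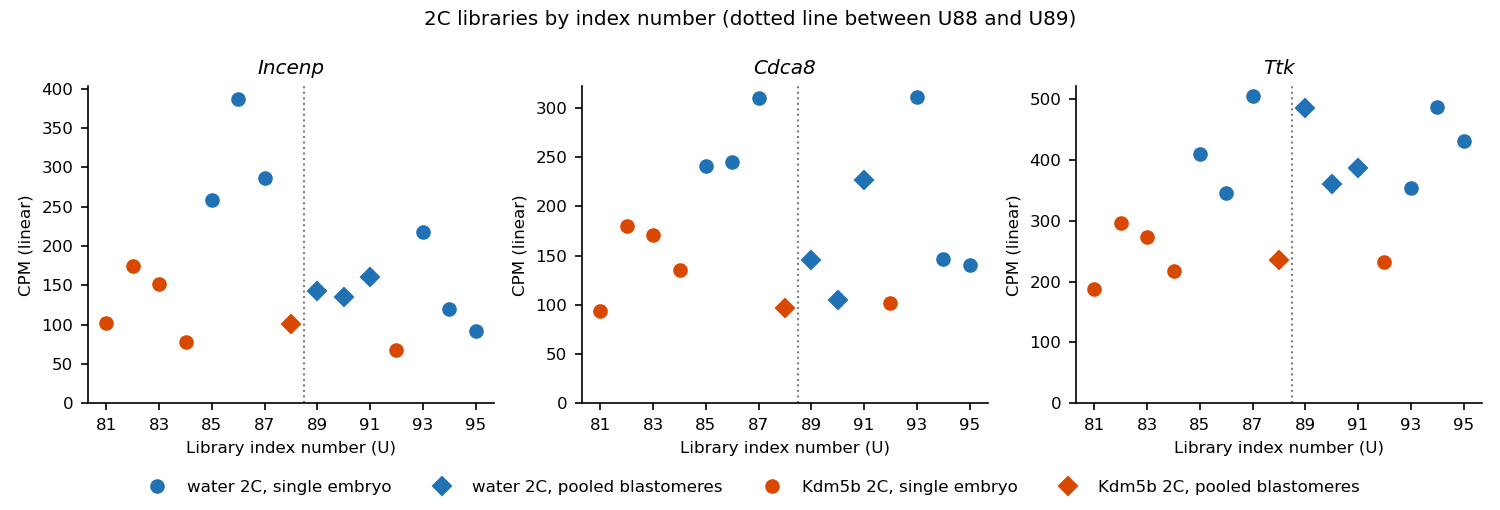
Incenp, Cdca8 and Ttk in the 15 2C libraries, in CPM on a linear axis that starts at 0, against library index number, with the dotted line between U88 and U89. Circles are single embryos and diamonds pooled blastomeres; water Incenp is 259 to 388 CPM left of the line and 92.4 to 218 CPM right of it, whereas all Ttk values of Kdm5b libraries (188 to 297 CPM) are below those of water libraries (345 to 505 CPM) on both sides.

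For the other 7 genes no difference between Kdm5b and water 2C samples passed the test, with adjusted p values of 0.488 or more. The estimates were -0.24 ± 0.11 for Birc5, -0.22 ± 0.40 for Aurkb, -0.24 ± 0.25 for Bub1, -0.10 ± 0.30 for Aurka, -0.05 ± 0.19 for Bub1b, -0.02 ± 0.26 for Aurkc and 0.09 ± 0.13 for Mad2l1. The intervals of 2 SE were -0.43 to 0.34 for Bub1b and -0.16 to 0.34 for Mad2l1, but -1.02 to 0.58 for Aurkb, whose counts are low. Birc5, with 209 to 304 CPM in Kdm5b and 264 to 360.1 CPM in water 2C samples, had 4 of 6 Kdm5b libraries below the lowest water library. Of the 10 estimates 9 were below 0, and their median was -0.23, beside 0.00 for all genes tested.

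The sequence before the start site is shown for Ttk and Cdca8, the 2 of the 3 genes lower within U81-U88 that the RefSeq promoter table holds. It was searched for CCAAT, the letters bound by NF-Y, and for TTTGAA, the letters of the cell cycle homology region of many genes expressed in G2 and M phase, on both strands in windows of 300 bases that end 50 bases after the start. Promoter windows were found for 8 of the 10 genes (all but Incenp and Aurkb). CCAAT was present in 6 of the 8 (37.4% of 32851 windows), TTTGAA in 4 (17.9%), and both in Aurka, Cdca8, Ttk and Bub1b (6.95%). The 250 bases before each start are printed below 5′ to 3′ in the direction of transcription, with CCAAT or its complement ATTGG in capitals. The TTTGAA match of both genes lies after the start. A match is a description of letters, and no binding or H3K4 methylation was measured in these libraries.
Ttk, GRCm38.p6 chr9:83834439-83834688, plus strand: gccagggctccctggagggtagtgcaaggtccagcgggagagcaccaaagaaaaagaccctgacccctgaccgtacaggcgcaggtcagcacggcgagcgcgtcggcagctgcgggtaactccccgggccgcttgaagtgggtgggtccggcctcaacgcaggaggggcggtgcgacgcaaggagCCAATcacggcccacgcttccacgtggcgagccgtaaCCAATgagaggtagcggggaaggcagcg
Cdca8, GRCm38.p6 chr4:124936918-124937167, minus strand: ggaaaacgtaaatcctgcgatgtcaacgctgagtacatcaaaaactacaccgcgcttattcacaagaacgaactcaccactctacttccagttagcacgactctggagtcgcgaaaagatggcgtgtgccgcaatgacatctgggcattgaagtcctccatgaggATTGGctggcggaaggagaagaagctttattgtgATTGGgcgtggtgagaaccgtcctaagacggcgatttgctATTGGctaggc

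A list of 52 other genes, which recruit, partner or receive signals from the passenger complex and the checkpoint, also held genes that rose and genes that fell. In water 2C samples against water zygotes, 14 of the 52 were called lower and 4 higher, where 13.0% of all genes were lower and 9.20% higher. At the adjusted p alone 26 were lower and 9 higher, where 25.4% of all genes were lower and 26.8% higher. Their median log2 fold change was -0.40. In the Kdm5b groups 19 were called lower and 2 higher, with a median of -0.72, where 16.0% of all genes were lower and 10.5% higher.

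By role, genes that recruit the passenger complex or are its targets had 6 of 12 called lower and none higher in the water groups. There 13.0% of all genes were called lower and 9.20% higher. Kif2c, a microtubule depolymerase regulated by Aurora B, went from a median of 118 to 32.2 CPM (log2 fold change -1.97 ± 0.14). Kif23, a kinesin of the central spindle, went from 868 to 1130 CPM to 171 to 386 CPM (-1.80 ± 0.12). Kif20a, the kinesin that carries the passenger complex to the midzone, was at -1.02 ± 0.16.

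Among 7 partners of Aurora A, 2 were called higher and 1 lower, beside 9.20% and 13.0% of all genes. Plk1, the polo-like kinase, had medians of 210.3 and 66.8 CPM (-1.42 ± 0.19). Hmmr, a spindle protein that helps place TPX2, went from a median of 22.4 to 61.1 CPM (1.39 ± 0.19). Ajuba was fitted at 4.03 ± 0.75, but its zygote libraries lay between 0 and 1.19 CPM, so the size of this value depends on the prior count.

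Of 14 checkpoint genes 5 were called lower and 1 higher, beside 13.0% and 9.20% of all genes. Spdl1 (Spindly), which recruits dynein to kinetochores, was at -1.76 ± 0.15 and Bub3, the binding partner of BUB1 and BUBR1, at -1.29 ± 0.16, with medians of 95.7 CPM in water zygotes and 36.5 CPM in water 2C samples. Mad2l1bp, which helps to take MAD2 out of its inhibitory complex, was at 1.47 ± 0.27, from 6.85 to 19.3 CPM in water zygotes to 12.2 to 77.9 CPM in water 2C samples. Mad2l1 and this regulator were thus higher, while Bub1b, Bub1 and their partner Bub3 were lower. Of these, Mad2l1 and Bub1 passed the adjusted p but not the fold change threshold. Over the 14 checkpoint genes 4 estimates were above 0 and 10 below, and the named genes were picked by their p, so they do not describe the rest. In the Kdm5b groups Mad2l1bp was at 0.74 and was not called.

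Of 19 kinetochore genes 2 were called lower and 1 higher, which is not above the 13.0% and 9.20% of all genes. Ndc80, whose product binds microtubules, had the lowest estimate of the 52, at -3.41 ± 0.22, from a median of 140.4 to 11.2 CPM. Ska1, of the complex that holds on to microtubule ends, was at -2.13 ± 0.17, and Cenpa, the histone variant of centromeres, was at 1.04 ± 0.16. Cenpa was at 0.71 in the Kdm5b groups, where 6 of the 19 were called lower and none higher. In those groups 16.0% of all genes were called lower and 10.5% higher.

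**Figure D5:**
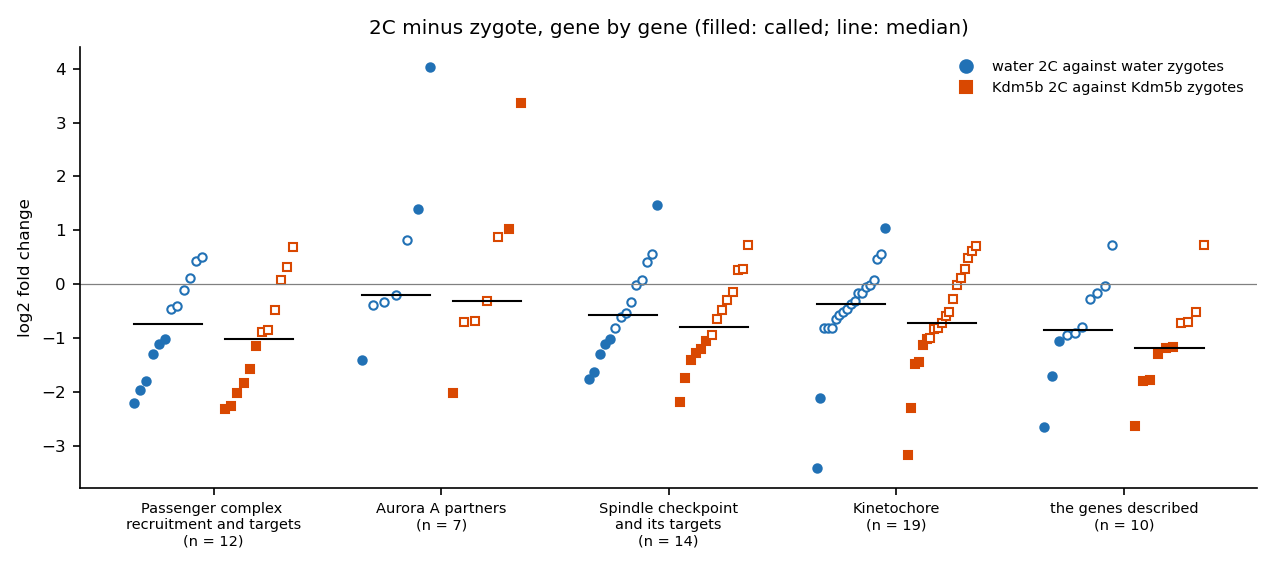
Log2 fold changes of 2C samples against zygotes for the 52 pathway genes by role and, at the right, the 10 genes described, in the water (circles) and Kdm5b groups (squares). Filled symbols were called at both thresholds and lines are medians; each of the 5 medians in the water groups lies between -0.85 and -0.20.

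Kdm5b against water left these 52 genes mostly uncalled. In zygotes none of the 51 tested passed the adjusted p, with 8 below 0.05 before adjustment, where 1234 of all 11933 genes were. In 2C samples none passed either, with 14 below 0.05 before adjustment, where 1152 of all 12244 genes were. Of the 52 estimates 42 were below 0, with a median of -0.20, beside a median of -0.0028 for all genes tested. The share of all genes with an estimate below 0 is not given here, and the 52 genes were not tested as a set. Within U81-U88, Kif20a alone was called, at -1.10 ± 0.25 (adjusted p = 0.0493). The call was lost without any of the 3 water libraries or Kdm5b 2C replicate 1, 4 or 6, at adjusted p values from 0.0624 to 0.223, with estimates between -1.13 and -0.97. Without both U86 and U87, which left 1 water library, Kif20a was at -1.12 (adjusted p = 0.934). It was at 138 to 156 CPM in water U85 to U87 and at 45.8 to 100.4 CPM in Kdm5b libraries U81-U88, but at 59.96 to 133 CPM in water U89 to U95, where it overlapped the Kdm5b libraries as Incenp did.

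The genes with the most similar profile over the 35 libraries were sought among 13778 genes by the root-mean-square difference of mean-centred log2 CPM. Kif20a was the nearest to Incenp (0.21), followed by Nolc1 (0.23). Ttk was nearest to Gfm2 (0.19) and Nlrp4f (0.20), and Cdca8 to Nlrp4a (0.19) and Hyls1 (0.20). Nlrp4f, an oocyte-expressed gene of the NLRP family, had medians of 2153 CPM in water zygotes, 2457 in water 2C samples and 1382 CPM in Kdm5b 2C samples. For Mad2l1 they were Pan2 (0.13), of a deadenylase complex, and Lrrc40 (0.16), for Bub1b Psma7 (0.26) and Zar1l (0.30), and for Aurka Gtf2b (0.23) and Rgs2 (0.24). The closest genes to Aurkb, Slc25a31 and Ube2o, were less close (both 0.43). The 35 libraries differ in stage, depth and library day, which enter this measure for every gene.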

How the data were processed

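Single embryos or pooled blastomeres were sequenced after SMART-Seq stranded total RNA library preparation as 100-base read pairs. Per the paper's methods and the submitters' notes, the authors trimmed reads with fastp 0.21.0, aligned them in 2-pass mode with STAR 2.7.3a to GRCm38 (mm10) and made the deposited gene counts with featureCounts 1.5.1, by strand and without multi-mapping fragments. No spike-in was used. Here the Kdm5b row was removed and edgeR 4.0.16 (R 4.3.3) was run on the deposited counts with TMM factors. Genes with low counts were dropped by filterByExpr at a minimum of 10, quasi-likelihood tests were made, and p-values were adjusted by the Benjamini-Hochberg method, each comparison on its own groups, the interaction on all 35 samples. A call needed a log2 fold change beyond 1 in either direction together with an adjusted p below 0.05. Printed intervals are the estimate ± 2 SE. The script was tested on simulated data. The labels do not say that samples came from separate animals, so p-values measure the spread between these samples only.

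The members and the gene lists were chosen with earlier results of these data known. Of each of the 4 pathway roles, the text names the 2 higher and the 2 lower called genes with the smallest p in water 2C against water zygotes, and any called in Kdm5b against water. Of the 52 pathway genes, 5 were matched by an older symbol, and 1 of the 2-cell markers was not matched. TPM used exon lengths of the count table, and likeness a prior count of 2. Levels and sequences were described without tests. Alternatives were other size factors, DESeq2 1.42.0, other filters, other sets of samples and the replicate number as a block. A table of repeat elements was not used here.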

Additional observations from a re-analysis of the deposited data

Results flagged for a closer look

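Incenp in Kdm5b zygote replicate 8 was at 496 CPM, whereas the next highest Kdm5b zygote was at 402 CPM. The gap was 0.718 of the group's whole range, above Dixon's 95% critical value for 10 samples. Of 40 sets of gene and group examined this was the 1 that stood out, where chance alone gives about 1 in 20.

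For Ttk, the Kdm5b minus water difference changed between the stages by -0.66 on the log2 scale (2C minus zygote, edgeR interaction term, adjusted p = 0.0152). This fit used a common estimate of the spread for both stages, although 2C libraries varied more. The estimates were -0.12 in zygotes and -0.79 in 2C samples, where Ttk was below every water sample in 6 of 6 Kdm5b samples.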

How the results depend on the processing

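Most values of single genes kept their direction and their side of the adjusted p threshold. These were 618 of 633 under the alternatives and 1062 of 1090 with 1 library left out. A gene that crossed only the fold change threshold was counted as kept. Of the counts of called genes, 231 of 257 and 432 of 452 stayed equal or close to the main count. At the adjusted p alone, the 2C against zygote comparison had 1 of the 10 genes higher and 7 lower in the water groups, with 9 and 26 pathway genes. Of all 11968 genes, 3210 were higher and 3040 lower. In the Kdm5b groups 1 of the 10 was higher, with 10 pathway genes higher and 36 lower. Of all 12390 genes, 3625 were higher and 3654 lower. In the same way, 1 of the 10 was lower in Kdm5b against water 2C, 3 within U81-U88 (2 pathway genes) and 1 in the interaction. Over all genes, 3 of 12244, 101 of 12426 and 14 of 13778 were lower. Same-numbered samples did not deviate together (correlations from -0.233 to 0.0998), so the numbers do not pair them. With the replicate block 5 of the 10 were lower in the water stage comparison (1673 of all 11968 genes). In the Kdm5b stage comparison 1 pathway gene was higher (1004 of all 12390 genes). With the same block, Cdca8 in Kdm5b against water 2C was at -0.81 (adjusted p = 0.0438).

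With library totals only, no filter, or a mean of at least 50 counts, 1 pathway gene was higher in the Kdm5b stage comparison. Over all genes, 1006 of 12390, 1988 of 20183 and 722 of 9128 were higher there. Library totals moved the median of all genes there to -0.12, from 0.01. With the index range as a term, 1 of the 10 and 2 pathway genes were lower in Kdm5b 2C samples, as were 47 of all 12244 genes. Within U81-U88, 3 pathway genes were lower with library totals (81 of all 12426 genes), 3 with DESeq2 (128 of 12426) and 4 without a filter (148 of 18431). Of the alternatives chosen after seeing the data, 2C libraries U81-U88 alone gave 7 pathway genes lower in the water stage comparison (1539 of all 13256 genes), and 1 of the 10 (Incenp, -1.27) and 3 pathway genes lower in the interaction, where 242 of all 14573 genes were lower and 155 higher. Leaving out U86 and U87 gave 0 of the 10 and 0 pathway genes within U81-U88 (0 of all 14499 genes), where 1 water library remained and was assumed to vary like the Kdm5b libraries. The stage difference of Cdca8 in water groups turned to 0.0036 in single embryos and to 0.16 with U85 to U87, and was -0.40 with U89 to U95 (adjusted p = 0.0342). The cause was not tested for any of these.

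With 1 library left out, 2 to 5 of the 10 were lower in the water stage comparison and 1 to 2 pathway genes higher in the Kdm5b one. Within U81-U88, 0 to 2 of the 10 and 0 to 6 pathway genes were lower. The counts over all genes in these fits are not given here, so these ranges only describe the listed genes. Birc5 in Kdm5b against water zygotes ran from -0.0253 to 0.00686. The interaction of Ttk stayed between -0.74 and -0.60 (adjusted p from 0.00197 to 0.0465). Aurkb, at 38 to 316 fragments per library, is limited by depth.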
